A study of Mus musculus with 35 samples.

Results

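The Zic genes encode a family of zinc-finger transcription factors, and the members described here, Zic1, Zic2, Zic4 and Zic5, were taken by symbol from the deposited table, as 4 of the 54446 genes it lists. Mouse bulk RNA-seq was used, with 27 libraries in 9 groups of 3 from a series of 35 samples. Its single-cell RNA and bisulfite samples were not analysed here. In vivo, epiblasts of untreated embryos, labelled as wild-type CD-1 of mixed sex, were collected at 5 stages, daily from E3.5 to E7.5, from pooled embryos. At E3.5 the inner cell mass, which also holds primitive endoderm precursors, was cut free of trophectoderm by laser. At E4.5 the trophectoderm was removed by immunosurgery and cells without signal from the endoderm reporter Pdgfra:H2B-GFP, which these embryos carried despite their label, were picked. At later stages the epiblast was freed of visceral endoderm and of extra-embryonic ectoderm. In vitro, pluripotent lines given as wild-type were grown in 4 ways. By the study's methods, EpiSCs from embryos were derived from wild-type CD-1 and from LifeAct-GFP reporter embryos. The paper calls its culture controls isogenic but does not state which of these lines was sequenced. Genetic background may therefore differ between cultures of ESC and of embryo origin. EpiLCs, a short-lived formative state, were ESCs kept for 48 h in FGF2 and Activin A, and 2D EpiSCs, the primed state, were ESCs converted with the same factors. 3D EpiSCs, derived either from ESCs or from E5.5 epiblasts, were grown in 3D Matrigel with FGF2, Activin A, the Wnt pathway inhibitor XAV939 and the BMP antagonist Noggin. Medium and dimension therefore changed together between 2D and 3D cultures.

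Zic proteins bind DNA through tandem zinc fingers related to those of the Gli proteins, the effectors of hedgehog signalling, and they can act as activators or repressors. In the mouse, Zic2 is known for forebrain and neural tube development and for its link to primed pluripotency. Zic5 acts in neural tube closure and neural crest, and Zic1 and Zic4 are best known from the dorsal neural tube and the cerebellum.

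The members lie in neighbouring pairs (mm10 coordinates, GENCODE vM21 gene models). Zic5 (ENSMUSG00000041703.7, chr14:122456795-122465677, minus strand) and Zic2 (ENSMUSG00000061524.8, chr14:122475435-122479852, plus strand) point away from each other, with 9758 bp between their starts. The long non-coding gene 2610035F20Rik (ENSMUSG00000085555.9, chr14:122470284-122475199, minus strand) lies between them and starts 236 bp from the start of Zic2. Zic1 (ENSMUSG00000032368.14, chr9:91358058-91365810, minus strand) and Zic4 (ENSMUSG00000036972.14, chr9:91362413-91389348, plus strand) overlap by 3398 bp on opposite strands. Both library kits keep the strand, but whether the quantification used it is not given in the sources used here, so reads from the overlap may not be told apart. Gm37477, a model that awaits experimental support (ENSMUSG00000102803.1, chr9:91380519-91381402, minus strand), overlaps Zic4 and was listed at 0 in every library.

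**Figure D1:**
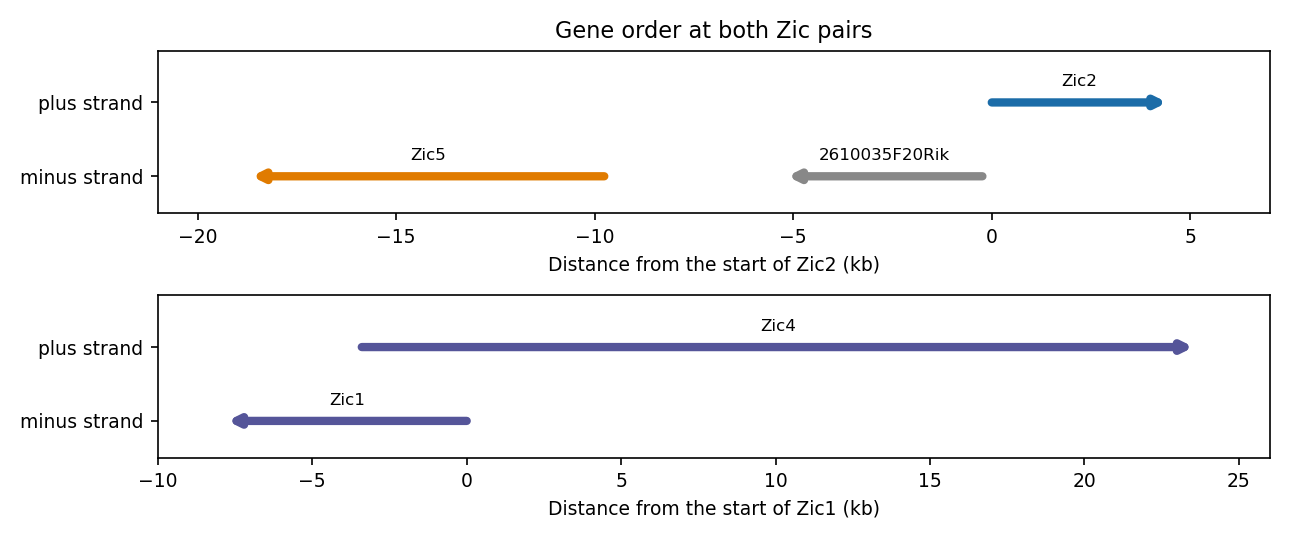
Gene order at both Zic pairs, drawn to scale as distance in kb from the start of Zic2 (top) and of Zic1 (bottom). Arrows run from the start to the end of each gene on its strand, with 2610035F20Rik in grey. The starts of Zic5 and Zic2 are 9758 bp apart, and Zic1 and Zic4 overlap by 3398 bp.

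Of the 4 members, 3 (Zic1, Zic4 and Zic5) matched a RefSeq promoter sequence (GRCm38.p6, the assembly of mm10), and Zic2 did not. The bases before the GENCODE start are shown for Zic5, a partner of the expressed pair, and for Zic1, a partner of the pair that was near or at 0, with every CG dinucleotide in capitals. Both are read 5' to 3' on the minus strand, from chr14:122465678-122465908 for Zic5 and from chr9:91365811-91366018 for Zic1.
Zic5: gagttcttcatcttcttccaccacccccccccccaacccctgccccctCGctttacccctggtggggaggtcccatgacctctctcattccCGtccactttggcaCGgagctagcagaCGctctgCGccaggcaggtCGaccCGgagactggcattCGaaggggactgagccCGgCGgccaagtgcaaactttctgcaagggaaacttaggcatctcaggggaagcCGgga
Zic1: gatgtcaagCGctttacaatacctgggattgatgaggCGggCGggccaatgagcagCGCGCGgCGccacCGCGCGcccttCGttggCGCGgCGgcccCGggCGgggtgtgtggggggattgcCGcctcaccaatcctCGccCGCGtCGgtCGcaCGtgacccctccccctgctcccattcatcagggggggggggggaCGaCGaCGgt
The capitals stand denser before Zic1, with 26 CG in 208 bases, than before Zic5, with 11 in 231 bases. Over the RefSeq window of 300 bases, which runs from 250 bases before the RefSeq start to 50 after it, Zic1 held 31 CG, more than 89.4% of 32817 mouse promoters, Zic5 held 15 and Zic4 held 8, against a median of 7. The GC box GGGCGG, searched on both strands as all motifs were, occurred 3 times in the window of Zic1, once in that of Zic5 and not in that of Zic4, and 35.6% of all promoters hold it. The letters CAGCAGG, a core of Zic binding sites, occurred in none of the 3 windows, and 10.5% of promoters hold them. The same was true of the Gli site TGGGTGGTC, which 0.253% of promoters hold. It was also true of the Otx site TAATCC, held by 7.06%, and of the octamer bound by Pou factors, ATGCAAAT, held by 1.74%. No TATA box, spelled TATAAA and held by 13.6% of promoters, was found in them either. None of these motifs contains another.

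Zic2 and Zic5 were detected in all 27 libraries. The unit is TPM, the share of transcripts scaled to a fixed total in each library, which is relative to transcript length and to all transcripts of a library, so levels can be set side by side between genes. They were above 2 TPM in every library, with ranges of 9.87 to 231.7 TPM for Zic2 and 3.88 to 86.5 TPM for Zic5. Zic1 was above 0 in 15 libraries and never exceeded 0.216 TPM. Zic4 was above 0 in 1 library only, E6.5 replicate 2, at 0.0996 TPM.

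**Figure D2:**
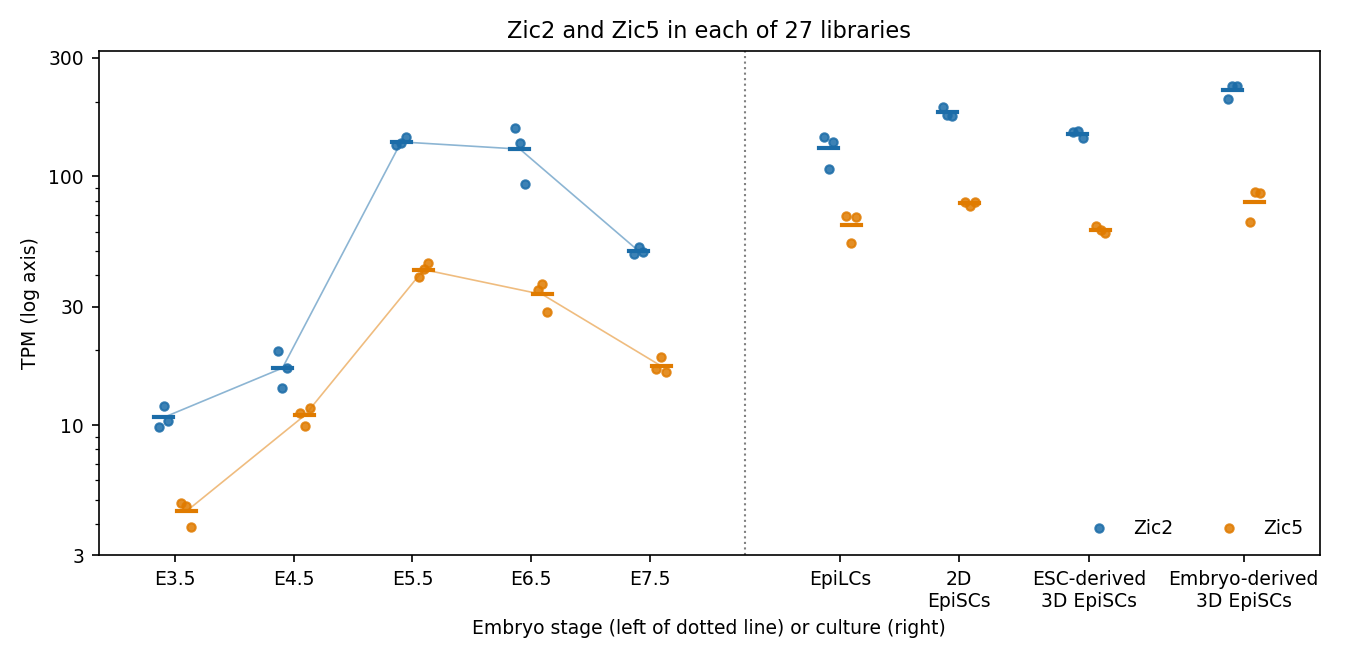
TPM of Zic2 (blue) and Zic5 (orange) in each of 27 libraries on a log axis, with embryo stages left of the dotted line and cultures right of it. Points are libraries, short bars are means of 3, and thin lines join the stage means. Zic2 and Zic5 sit highest in vivo at E5.5, at means of 137.6 and 42.2 TPM, and in every library Zic2 lies above Zic5.

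In the embryo, Zic2 was low before implantation and high after it. Its TPM was 9.87, 11.998 and 10.4 at E3.5, 19.9, 14.1 and 16.9 at E4.5, and 133.3, 135.8 and 143.8 at E5.5. It was 157.1, 136.0 and 93.2 at E6.5, and 48.8, 51.8 and 49.8 at E7.5. All libraries of E5.5 and E6.5 were above those of E7.5, which in turn were above all of E3.5 and E4.5. Stage means ran in the order E5.5 (137.6 ± 5.48), E6.5 (128.8 ± 32.5), E7.5 (50.1 ± 1.54), E4.5 (17.0 ± 2.86) and E3.5 (10.75 ± 1.11 TPM, SD, n = 3 each), and of these neighbours only E5.5 and E6.5 overlapped.

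Zic5 followed the same order of stages at lower levels. Its TPM was 4.88, 4.76 and 3.88 at E3.5, 11.2, 9.97 and 11.7 at E4.5, and 39.4, 42.5 and 44.7 at E5.5. It was 35.1, 36.9 and 28.6 at E6.5, and 16.8, 18.8 and 16.3 at E7.5. No library of a stage reached into the range of another stage.

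Each step between stages was tested with limma, a linear model fitted across genes, on log2(TPM + 1). Fits of the in vivo and in vitro libraries were separate. A gene was called when its p, adjusted by the Benjamini-Hochberg method, was below 0.05 and its log2 fold change was beyond 1 in either direction, and fold changes on this scale understate those of low genes. Zic2 and Zic5 were tested among autosomal protein-coding genes above 2 TPM in at least 3 libraries (11880 in vivo). Zic1 and Zic4 failed that filter and were not part of these tests. By the study's methods each in vivo replicate was a pool of embryos of its own. Nothing says that the culture replicates were separate cultures, so in vitro p-values measure only the spread between these samples, which may be technical.

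Between E3.5 and E4.5, 1 of the 2 tested members was called, Zic5, which rose by 1.12 ± 0.11 on the log2 scale (SE, adjusted p = 1.80e-06). In this step 17.8% of all genes tested were called, and 5.88% were called higher. Zic2 differed by 0.61 ± 0.16 (adjusted p = 0.00641), higher at E4.5 with no overlap between the stages but under the fold threshold. Markers of other cell types differed between these stages too. The summed TPM of 10 primitive and visceral endoderm markers was 521.8 to 534 at E3.5 and 155.1 to 181.8 at E4.5, and that of 7 trophectoderm markers was 455.7 to 482.9 and 438.4 to 449.9. Behind the latter sums 4 of the 6 trophectoderm markers tested rose, among them Hand1 by 3.82, Krt7 by 2.95 and Tfap2c by 1.60, and 2 fell, Cdx2 by 2.72 and Gata3 by 1.26 on the log2 scale. In bulk samples fewer cells of a type and less RNA per cell cannot be told apart, and the part of these cells in the Zic levels was not tested.

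Implantation was the largest step for Zic2 among those tested. From E4.5 to E5.5 Zic2 rose by 2.96 ± 0.16 on the log2 scale (adjusted p = 2.90e-09), an 8.11-fold difference in mean TPM, and Zic5 rose by 1.85 ± 0.11 (adjusted p = 7.70e-09), a 3.85-fold difference. These were 2 of the 2 tested members, where 24.4% of all genes tested were called and 14.9% were called higher. Trophectoderm markers moved with this step, from a summed 438.4 to 449.9 TPM at E4.5, where 6 of the 7 had means above 2 TPM, to 16.8 to 19.5 TPM at E5.5, where 5 had, among them Cdx2 at 2.86 TPM and Elf5 at 3.93 TPM. Endoderm markers moved the other way, to 693.2 to 746.9 TPM at E5.5, with all 10 means above 2 TPM and the visceral endoderm genes Afp and Ttr at means of 81.0 and 84.8 TPM, and their part in the Zic values was not tested. RNA was also fragmented for another time and at another temperature from E5.5 on, which cannot be told apart from the stage here.

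Between E5.5 and E6.5 neither of the 2 tested members was called by limma, in a step where 1.2% of all genes tested were. At an unadjusted p below 0.05, 1 of the 2 passed, Zic5. Zic2 differed by -0.13 ± 0.16 (95% confidence interval -0.48 to 0.22) and Zic5 by -0.33 ± 0.11 (-0.57 to -0.09, adjusted p = 0.0774). E6.5 replicate 3 was the lowest library of its stage for both genes, and without it Zic2 differed by 0.09. Markers of primitive streak and nascent mesoderm reached 316.7 to 386.4 summed TPM at E6.5, against 108.3 to 117 TPM at E5.5. Endoderm markers summed to 1128 to 1155 TPM at E6.5, against 693.2 to 746.9 TPM at E5.5, though 0 of the 10 were called. The part of either in the Zic values was not tested.

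By E7.5 both partners stood lower again. Zic2 fell by 1.31 ± 0.16 on the log2 scale against E6.5 (adjusted p = 2.19e-05), to 0.389 of its mean TPM, and was the 1 member called of 2, where 12.6% of all genes tested were called and 1.94% were called lower. Zic5 was at 0.516 of its E6.5 mean TPM, a difference of -0.91 ± 0.11 (adjusted p = 2.11e-05) just under the fold threshold, and without E6.5 replicate 3 it was called at -1.02 (adjusted p = 1.48e-05). The median of all genes tested shifted by 0.31 in this step. After median-of-ratios rescaling, which sets the typical gene level across libraries, Zic2 stood at -1.64 and Zic5 was called at -1.23 (adjusted p = 7.46e-07). Summed epiblast markers stood at 818.7 to 862.7 TPM at E7.5 against 2611 to 3030 TPM at E6.5, with 6 of 7 called lower. Endoderm markers summed to 1213 to 1239 TPM against 1128 to 1155 TPM, with 1 of 10 called, Pdgfra, which was higher. Trophectoderm and extra-embryonic ectoderm markers summed to 151.8 to 168.2 TPM against 30.2 to 38.4 TPM, with Cdx2, Hand1 and Gata3 called higher and Elf5 lower. As these members went both ways, their sum does not measure the amount of such cells. Streak markers summed to 148 to 156.5 TPM against 316.7 to 386.4 TPM, with 5 of 7 called lower and Tbx6 and T higher. Neural ectoderm markers summed to 43.5 to 48.95 TPM against 4.3 to 7.18 TPM. All 4 of them that were tested were called higher, as were 10.6% of all genes. The part of these changes in the Zic values was not tested.

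**Figure D3:**
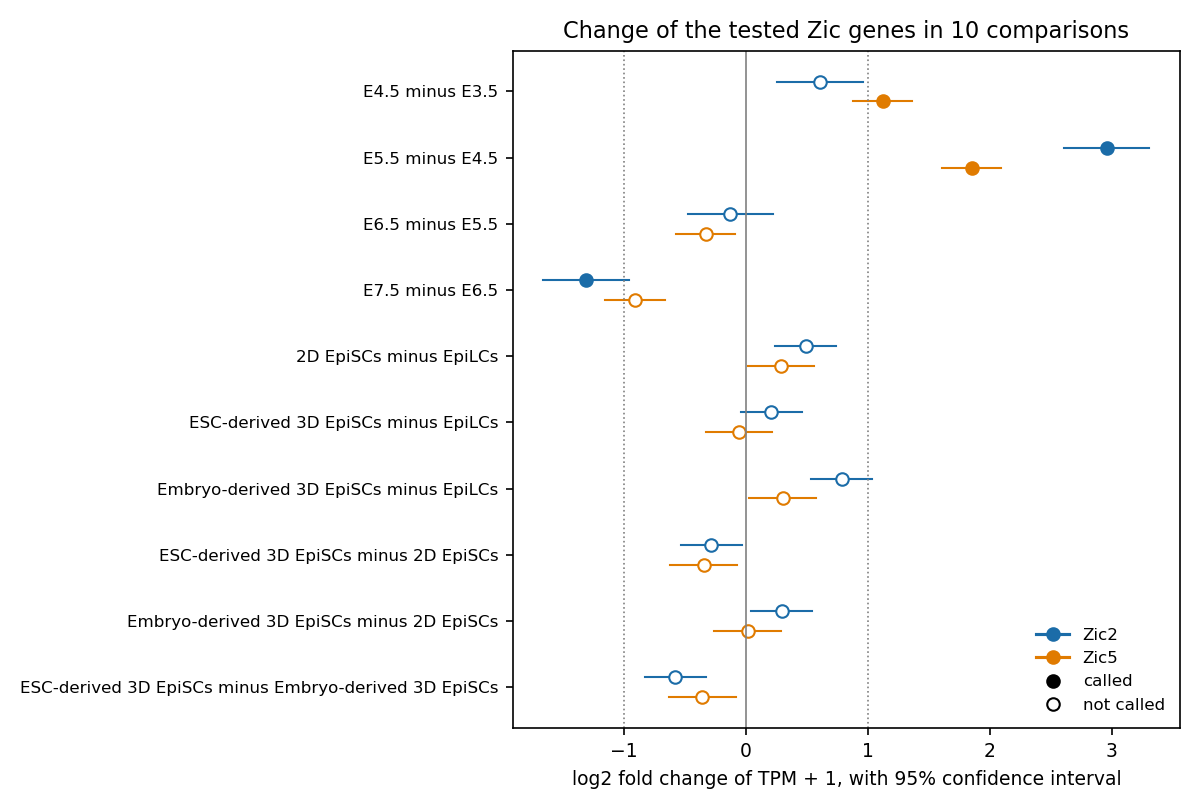
log2 fold changes of TPM + 1 for Zic2 (blue) and Zic5 (orange) in 4 steps between stages and 6 comparisons of cultures, with 95% confidence intervals from limma. Filled points were called, open points were not, and dotted lines mark the fold threshold. The 4 called points are all in vivo, at 1.12 for Zic5 from E3.5 to E4.5, 2.96 and 1.85 for Zic2 and Zic5 from E4.5 to E5.5, and -1.31 for Zic2 from E6.5 to E7.5.

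Zic2 and Zic5 moved together across stages but not in step. Over the 15 in vivo libraries Pearson's r of their log2(TPM + 1) was 0.972, as a description over points that share stages. The ratio of Zic2 to Zic5 in TPM was 2.41 ± 0.341 at E3.5 and 1.54 ± 0.195 at E4.5. It was 3.26 ± 0.106 at E5.5, 3.81 ± 0.617 at E6.5 and 2.90 ± 0.145 at E7.5. The 3 ratios of E4.5 were below all others in vivo. RNA was fragmented differently from E5.5 on, which cannot be told apart from the stage, and its part in these ratios was not tested. The difference of the partners on the log2(TPM + 1) scale varied between stages beyond the spread of replicates (exact permutation test of a one-way F, one-sided, p = 1.43e-06, where 2 of 1401400 groupings gave an F as large). The same exact permutation test in vitro gave p = 1.95e-04, where 3 of 15400 groupings did, and these were the 2 main tests of this kind. With the nearly identical culture replicates described below averaged, the permutation test in vitro gave p = 0.00159, where 2 of 1260 groupings did. In vitro the ratio was 2.02 ± 0.0512 in EpiLCs, 2.32 ± 0.0988 in 2D EpiSCs, 2.43 ± 0.0655 in ESC-derived and 2.83 ± 0.252 in embryo-derived 3D EpiSCs. The EpiLC ratios were below those of every other culture, and those of 2D and ESC-derived 3D EpiSCs overlapped.

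**Figure D4:**
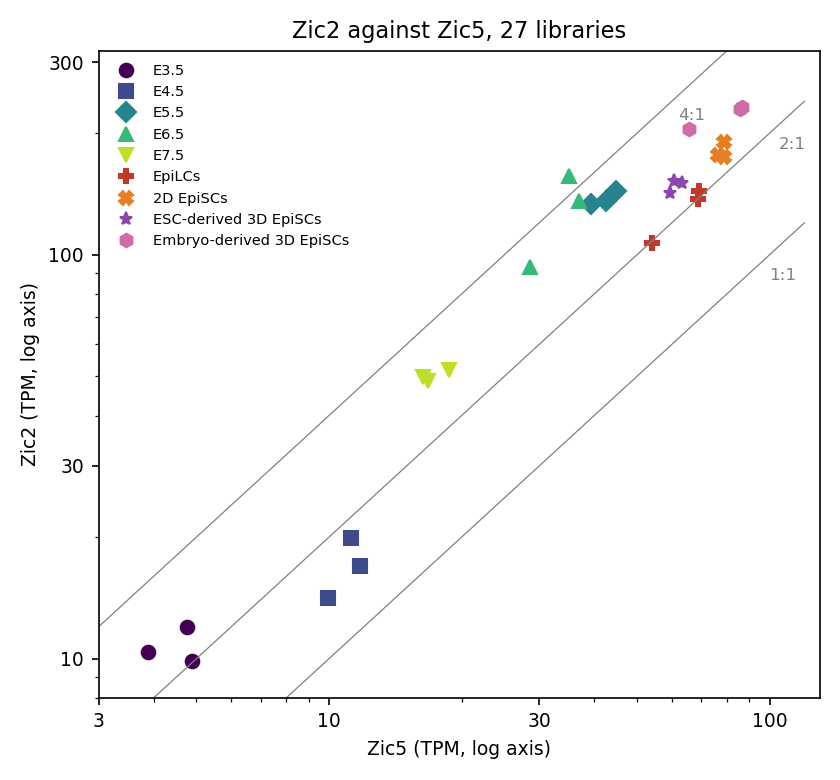
Zic2 against Zic5 in TPM on log axes, with 1 point per library and 1 symbol per group. Grey lines mark ratios of 1, 2 and 4. E4.5 lies lowest, at a mean ratio of 1.54, and E6.5 highest, at 3.81.

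The non-coding neighbour 2610035F20Rik was low throughout. Its mean TPM was 0.395 at E3.5, 0.200 at E4.5, 2.21 at E5.5, 2.08 at E6.5 and 0.830 at E7.5. In cultures it was 1.94 in EpiLCs, 2.63 in 2D EpiSCs, 2.52 in ESC-derived and 3.53 in embryo-derived 3D EpiSCs. Its r with Zic2 was 0.863 over the 15 in vivo libraries and 0.842 over the 12 in vitro libraries, against 0.806 and 0.533 with Zic5. Its gene model does not overlap that of Zic2, but their starts lie only 236 bp apart. Whether reads that run past a start entered either value was not tested.

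In culture the question was how the 3D EpiSCs compare with the formative EpiLCs and the primed 2D EpiSCs. Zic2 was high in all 4 cultures, at 143.9, 107.0 and 137.7 TPM in EpiLCs and 190.5, 177.0 and 175.0 TPM in 2D EpiSCs. It was at 150.8, 152.1 and 142.2 TPM in ESC-derived and at 204.9, 231.7 and 230.1 TPM in embryo-derived 3D EpiSCs. The embryo-derived 3D EpiSCs were above all other cultures, and EpiLCs and ESC-derived 3D EpiSCs were the only neighbours in this order that overlapped.

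Zic5 spanned a narrower range of culture means than Zic2. Its TPM was 69.3, 54.1 and 68.7 in EpiLCs, 78.6, 76.4 and 78.6 in 2D EpiSCs, 63.2, 60.8 and 59.4 in ESC-derived and 65.7, 86.5 and 85.6 in embryo-derived 3D EpiSCs. Embryo-derived 3D EpiSCs (79.3 ± 11.8) overlapped 2D EpiSCs (77.9 ± 1.30), and EpiLCs (64.0 ± 8.61) overlapped ESC-derived 3D EpiSCs (61.1 ± 1.94 TPM, SD, n = 3 each).

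Neither gene was called by limma between 3D and 2D EpiSCs. In ESC-derived 3D EpiSCs 9.89% of the 11541 genes tested in vitro were called against 2D EpiSCs, and 2 of the 2 members passed at an unadjusted p below 0.05. In embryo-derived 3D EpiSCs 8.82% were called, and 1 of the 2 members passed, Zic2. For ESC-derived 3D EpiSCs Zic2 differed by -0.28 ± 0.11 (95% confidence interval -0.53 to -0.03, adjusted p = 0.0616) and Zic5 by -0.34 ± 0.13 (-0.62 to -0.07, adjusted p = 0.0420). After median-of-ratios rescaling these were -0.06 and -0.13, in a comparison whose median over all genes tested was -0.21. For embryo-derived 3D EpiSCs Zic2 differed by 0.29 ± 0.11 (0.04 to 0.54, adjusted p = 0.0688) and Zic5 by 0.01 ± 0.13 (-0.26 to 0.29, adjusted p = 0.945). Endoderm markers summed to 0.825 to 14.0 TPM in ESC-derived and 12.7 to 26.1 TPM in embryo-derived 3D EpiSCs, against 47.4 to 64.2 TPM in 2D EpiSCs. Streak markers summed to 58.9 to 76.9 and 144.9 to 231.4 TPM, against 172.4 to 205.4 TPM, and the part of either in these differences was not tested.

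Against EpiLCs no member was called by limma either, and Zic2 showed the larger differences. In 2D EpiSCs 20.4% of all genes tested were called, and 2 of the 2 members passed at an unadjusted p below 0.05. Zic2 was 0.49 ± 0.11 higher there than in EpiLCs (adjusted p = 0.00320) and Zic5 0.29 ± 0.13 higher (adjusted p = 0.0672). After the same rescaling these differences were 0.26 and 0.07. In embryo-derived 3D EpiSCs 18.8% of all genes tested were called, and 2 of the 2 members passed at an unadjusted p below 0.05. Zic2 was 0.78 ± 0.11 higher there (adjusted p = 1.34e-04), a 1.72-fold difference in mean TPM under the fold threshold, and Zic5 0.30 ± 0.13 higher (adjusted p = 0.0583). In ESC-derived 3D EpiSCs 12.4% of all genes tested were called, and 0 of the 2 members passed at an unadjusted p below 0.05, with confidence intervals of -0.04 to 0.46 for Zic2 and -0.33 to 0.22 for Zic5. In EpiLCs endoderm markers summed to 1.69 to 2.33 TPM and streak markers to 5.87 to 9.32 TPM, and the part of either in the Zic differences was not tested.

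Between the 3D cultures limma called 3.96% of all genes tested and no member, and 2 of the 2 members passed at an unadjusted p below 0.05. Both were lower in the ESC-derived than in the embryo-derived culture, Zic2 by -0.58 ± 0.11 (adjusted p = 0.00597) and Zic5 by -0.36 ± 0.13 (adjusted p = 0.0619). The summed endoderm and streak markers given above were lower in the ESC-derived culture too, with overlapping ranges for endoderm only, and their part was not tested.

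Some culture replicates were nearly identical. Replicates 1 and 2 of the 2D EpiSCs, 1 and 2 of the ESC-derived and 2 and 3 of the embryo-derived 3D EpiSCs had median absolute log2 differences of 0.0569 to 0.0649, against 0.131 to 0.271 for the other 9 culture pairs. Whether these differ by less than sampling noise cannot be tested without counts. With each such pair averaged into 1 sample, the differences between the 3D cultures had adjusted p of 0.131 for Zic2 and 0.429 for Zic5, while Zic2 was still higher than in EpiLCs in embryo-derived 3D EpiSCs (0.76, adjusted p = 0.00435) and in 2D EpiSCs (0.48, adjusted p = 0.0322).

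Asked whether a member differed among groups at all, Zic2 and Zic5 each passed limma's F test in vivo (adjusted p = 1.81e-10 and 8.82e-11), as did 91.6% of all genes tested. In vitro the adjusted p was 4.36e-04 for Zic2 and 0.0347 for Zic5, where 77% of all genes tested passed. The Zic5 result lay near the threshold, and it was lost on leaving out any 1 of 8 of the 12 in turn (adjusted p 0.0537 to 0.0775). These were each of the 2D and ESC-derived 3D EpiSC libraries and embryo-derived replicates 2 and 3. Without embryo-derived replicate 1 the adjusted p was instead 0.00691. The Zic5 result was also lost with near-identical replicates averaged (0.232), after the rescaling (0.357) and with the replicate number as a block (0.0589).

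Levels in cultures and embryos were set side by side with no test, because the kits differ (poly-A capture in vitro and ribosomal depletion of total RNA in vivo) and kit and origin cannot be told apart. Zic2 at 129.5 to 222.2 TPM over the culture means was near or above its E5.5 and E6.5 means of 137.6 and 128.8 TPM. Zic5, at 61.1 to 79.3 TPM over the culture means, was above its highest stage mean of 42.2 TPM in all 4 cultures.

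Zic1 and Zic4, the pair known from the dorsal neural tube, stayed at or near 0. Zic1 was listed at 0 in every E3.5, E4.5 and embryo-derived 3D EpiSC library. It was at 0.135, 0.0894 and 0.114 TPM at E7.5, the only stage where all 3 libraries were above 0, and at 0.0718 to 0.199 TPM in EpiLCs, 0.0541 to 0.216 TPM in 2D EpiSCs and 0 to 0.0512 TPM in ESC-derived 3D EpiSCs. At such values the depth, which TPM does not keep, cannot show whether a group differs from 0. With the filter on low values taken off, neither gene was called by limma in the comparisons it entered. A call was not possible there, since log2(TPM + 1) never exceeded 0.283 for either gene and the fold threshold was 1. Zic4 was listed at 0 in every in vitro library and was tested in vivo only. For Zic1, 2 of the 6 in vitro comparisons had an unadjusted p below 0.05 and 0 of the 4 in vivo ones. The lowest adjusted p of limma for Zic1 in vitro was 0.0399, with log2 differences of -0.172 to 0.041 over the 6. For Zic4, 0 of the 4 in vivo comparisons did.

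The genes whose profiles were most like those of the members were found by Pearson's r of log2(TPM + 1) over the 27 libraries, after the mean of each set was subtracted, among 12592 other autosomal protein-coding genes above 2 TPM in at least 3 of the 27. For Zic5 the nearest was its neighbour Zic2 (r = 0.967), followed by Unc5b, a netrin receptor (0.967), Sertad4 (0.964), Slain1, a microtubule-binding protein (0.962), and Hook1 (0.960). For Zic2 the nearest were Sertad4 (0.973), Zic5 (0.967), the signalling adaptor Shb (0.963), Unc5b (0.961) and Muc13 (0.961). Most of this likeness came from the embryo. Over the 12 in vitro libraries alone Zic2 had an r of 0.836 with Zic5, 0.895 with Sertad4 and 0.908 with Shb, but 0.473 with Unc5b and 0.114 with Muc13, which was at or near 0 TPM in all cultures.

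Relatives of the Zic genes and the pathways around them were taken as lists, and their counts are set beside the shares of all genes tested. Of 6 Gli and Glis genes, 5 passed the filter in vivo. From E4.5 to E5.5, the step in which Zic2 and Zic5 rose, 4 of the 5 rose, where 14.9% of all genes were called higher, with a list median of 1.64 against 0.16 for all genes. Gli3 rose by 2.54 ± 0.24 (adjusted p = 7.59e-07), Gli2 by 1.66 ± 0.19 (adjusted p = 4.92e-06) and Glis1 by 1.64 ± 0.24 (adjusted p = 4.30e-05). Calls from E6.5 to E7.5 ran mostly upward, with 1265 of 11880 genes called higher (10.6%) and 231 lower (1.94%), or 736 and 382 after median-of-ratios rescaling. In that step 3 of the 5 rose, Gli1 by 2.05 ± 0.12 (adjusted p = 2.03e-08), Gli2 by 1.64 ± 0.19 (adjusted p = 1.33e-05) and Gli3 by 1.60 ± 0.24 (adjusted p = 1.23e-04), and the rescaling left the same 3 called.

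In vitro 4 of the Gli and Glis genes were tested. Calls against 2D EpiSCs ran mostly downward, with 9.25% of all genes called lower and 0.633% higher in ESC-derived 3D EpiSCs, and 7.75% and 1.07% in embryo-derived ones. Gli1, a direct readout of hedgehog signalling, was called lower in the ESC-derived (-1.99 ± 0.13, adjusted p = 2.90e-06) and in the embryo-derived cells (-1.28 ± 0.13, adjusted p = 3.55e-05). Gli2 was called lower in the former (-1.26 ± 0.17, adjusted p = 1.98e-04).

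Of 11 hedgehog pathway genes 9 were tested in vivo. From E4.5 to E5.5 4 rose and none fell, where 14.9% of all genes were called higher and 9.47% lower, with a list median of 0.95 against 0.16. Smo, the signal transducer, rose by 3.45 ± 0.09 (adjusted p = 2.86e-12), Gas1, a co-receptor, by 1.87 ± 0.17 (adjusted p = 3.50e-07), and Sufu, a Gli inhibitor, by 1.66 ± 0.14 (adjusted p = 2.14e-07). After the rescaling 3 of the 4 were still called. From E6.5 to E7.5 3 rose, beside the 10.6% of all genes called higher. These were the ligand Shh by 2.47 ± 0.23 (adjusted p = 1.83e-06), the co-receptor Boc by 2.46 ± 0.12 (adjusted p = 3.53e-09) and the receptor Ptch1 by 1.56 ± 0.12 (adjusted p = 2.18e-07). In vitro 7 were tested, and 1 was called in each 3D culture against 2D EpiSCs, a share near the 9.89% and 8.82% of all genes. It was Ptch1 in both, lower by -1.93 ± 0.28 (adjusted p = 3.15e-04) in the ESC-derived and by -1.80 ± 0.28 (adjusted p = 5.13e-04) in the embryo-derived cells.

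Of 16 neural plate factors, a class in which the Zic family is usually counted, 10 were tested in vivo. Otx2 and Sox2 of this list are also among the epiblast markers used here. From E3.5 to E4.5 3 rose, where 5.88% of all genes were called higher, Pou3f1 by 3.41 ± 0.19 (adjusted p = 4.34e-09), Otx2 by 3.09 ± 0.18 (adjusted p = 7.24e-09) and Irx3 by 2.00 ± 0.21 (adjusted p = 2.42e-06). The 4 neural ectoderm markers tested (Sox1, Six3, Hesx1 and Lhx5) all belong to this list too. Of them 0 were called in this step, where 17.8% of all genes were. From E4.5 to E5.5 2 of the 10 rose and 2 fell, with Otx2 up by 2.14 ± 0.18 (adjusted p = 2.08e-07) and Irx3 down by -3.74 ± 0.21 (adjusted p = 2.98e-09). These counts stand beside 14.9% of all genes called higher and 9.47% called lower. From E5.5 to E6.5 1 rose, Zeb2, where 1.2% of all genes were called. From E6.5 to E7.5 6 rose, beside the 10.6% of all genes called higher, among them Zeb2 by 3.53 ± 0.28 (adjusted p = 2.86e-07) and Irx3 by 3.11 ± 0.21 (adjusted p = 5.48e-08), with a list median of 2.08 against 0.31 for all genes. The 6 included all 4 neural ectoderm markers tested. Otx2 and Pou3f1 fell in this step, as Zic2 did, Pou3f1 by 2.54 ± 0.19 on the log2 scale (adjusted p = 1.54e-07). Of all genes 1.94% were called lower there.

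Of 9 neural plate border factors 6 were tested in vivo. From E4.5 to E5.5 Foxd3 was called higher (1.715), and Tfap2a (-5.43) and Msx1 (-1.41) lower. In that step 14.9% of all genes were called higher and 9.47% lower. From E5.5 to E6.5 Msx1 was called higher (1.37), where 1.2% of all genes were called. From E6.5 to E7.5 5 rose, led by Snai2 (3.27 ± 0.14, adjusted p = 8.99e-10), while Foxd3 fell by 4.96 ± 0.12 on the log2 scale (adjusted p = 3.23e-12). Beside these, 10.6% of all genes were called higher and 1.94% lower. In vitro 6 neural plate factors were tested. In 2D EpiSCs against EpiLCs 4 were called higher and Pou3f1 lower, where 20.4% of all genes were called. In ESC-derived 3D EpiSCs against 2D EpiSCs 3 fell, Irx3 by 2.95 ± 0.29 (adjusted p = 2.77e-05), Hesx1 by 2.89 ± 0.53 (adjusted p = 0.00149) and Zeb2 by 1.64 ± 0.24 (adjusted p = 3.66e-04), where 9.25% of all genes were called lower, with a list median of -1.23 against -0.21. In embryo-derived 3D EpiSCs against 2D EpiSCs limma called 2 lower, Irx3 (-2.565 ± 0.29, adjusted p = 5.51e-05) and Hesx1 (-1.73 ± 0.53, adjusted p = 0.0271). The list median there was -0.87 against -0.08 for all genes, of which 7.75% were called lower. The single border factor tested in vitro was Foxd3, which was called higher in both 3D cultures than in 2D EpiSCs, with log2 differences of 1.24 and 1.27, where 0.633% and 1.07% of all genes were called higher. Foxd3 moved against the 5 other border factors from E6.5 to E7.5, so its difference in culture does not stand for the list.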

How the data were processed

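Bulk RNA-seq of 27 mouse libraries was used, in 4 culture groups and 5 embryo stages of 3 libraries each. Reads had been trimmed (cutadapt 2.4), mapped by STAR to the mm10 genome and quantified by StringTie over GENCODE VM19 genes. The authors deposited the resulting TPM, which sums to 1000000 in every library. Depth is thus unknown from the file, no counting interval is given, and 22215 to 24438 genes in vitro and 20324 to 26751 in vivo were above 0. Repeated identifiers (12) were summed and empty cells (56 lines) set to 0. Gene models and biotypes came from GENCODE vM21, and promoter sequences from RefSeq.

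limma 3.58.1 in R 4.3.3 replaced the authors' count test, because no counts were used here. It was fitted to log2(TPM + 1) over the 4 culture groups and, apart from them, over the 5 stages, without covariates and with eBayes without trend, and checked on simulated data. Tests covered protein-coding genes on autosomes that exceeded 2 TPM in 3 or more libraries of the set. Zic2 minus Zic5 on the log2 scale was tested by exact permutation of all groupings of the libraries. Tables and plots were made in Python 3.11.15 (numpy 2.4.6, pandas 2.3.3, matplotlib 3.10.9).

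Some results are not reported here. For likeness the 5 nearest genes of each member were named, and for each list at most the 3 called genes of largest change in each direction. The members, lists and motifs were chosen with earlier results of these data known. Tests were repeated with a pseudocount of 0.1, without the filter, over all gene types, after median-of-ratios rescaling of TPM, with a replicate block, with an intensity trend, after averaging near-identical replicates, on the compared groups alone and without each library in turn. Replicate numbers did not pair the libraries, since deviations of same-numbered libraries had a mean correlation of -0.0299 in vitro (18 pairs) and -0.0166 in vivo (30 pairs).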

Additional observations from a re-analysis of the deposited data

How the results depend on the processing

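Of the values recomputed for counts of called members, F tests and the balance of Zic2 and Zic5, 195 stayed within 1.5 times or on the same side of the threshold and 13 did not. The count of members called between E7.5 and E6.5 went from 1 to 2 after median-of-ratios rescaling and without E6.5 replicate 3, Zic5 being then called, and ranged from 1 to 2 on leaving out libraries. Signs turned only for 5 values of differences that were not called. Zic5 in embryo-derived 3D EpiSCs against 2D EpiSCs was -0.053 with near-identical replicates averaged, and -0.054 to 0.143 on leaving out libraries. Zic5 in ESC-derived 3D EpiSCs against EpiLCs ranged from -0.172 to 0.0033 on leaving out libraries. Zic2 between E6.5 and E5.5 ranged from -0.287 to 0.0867. The cause of these changes was not tested. Replicate numbers did not pair the libraries (3 of 12 in vitro and 4 of 15 in vivo correlated best with their own number). With the replicate number taken as a block, the count of called members was the same in all 10 comparisons, 2 from E4.5 to E5.5 for example. In the F test in vitro 1 in place of 2 members passed under that block, Zic5 having an adjusted p of 0.0589. The same count went from 2 to 1 after the rescaling and with near-identical replicates averaged, and ranged from 1 to 2 on leaving out libraries. Groups of 3 libraries and an unknown depth limit the precision, most of all for the low values of Zic1 and Zic4.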
